A study of Mus musculus with 2 samples.

Results

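The 85 cytosolic ribosomal protein genes were taken as the rows of the mRNA table whose symbols begin with Rpl or Rps and a number, with Rpsa, Rplp0, Rplp1 and Rplp2 added, out of 27635 genes. By the prefix of the symbol, 52 were assigned to the large ribosomal subunit and 33 to the small subunit. Among them, Rpl32l and Rps4l are annotated as pseudogenes. They were described in 11318 cell barcodes of 1 pooled capture of cells from subcutaneous tumours of the mouse melanoma line B16F10, taken on day 14 after transplantation and enriched for CD3-bearing cells. Wild-type (WT) cells and cells labelled Nr4a KO were marked with hashtag antibodies and pooled. The labels do not give the Nr4a member, the deletion's driver, the strain or age of the mice, or the genotype behind a hashtag, so no value below compares genotypes and each hashtag is a sample of unknown group. The members held 70902252 counts, or 11.6% of all counts in the barcodes kept.

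Each ribosome is built from ribosomal RNAs and a fixed set of ribosomal proteins, and cells that grow or divide spend a large part of their transcription on these genes. Most of their mRNAs begin with a run of pyrimidines, the terminal oligopyrimidine (TOP) sequence, through which mTOR and the binding protein Larp1 control their translation. Tcf7 encodes TCF1, a transcription factor of naive, memory and stem-like T cells. Several ribosomal protein genes have a paralogous copy elsewhere in the genome; Rps27l, a p53 target, is a copy of Rps27, and Rpl22l1 is a copy of Rpl22.

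The Rps27 pair is shown because its balance differed between cell classes. Capitals mark the bases that differ between Rps27 and Rps27l, and the coding sequences are those of the GENCODE vM21 annotation of GRCm38, printed 5′ to 3′.
Rps27: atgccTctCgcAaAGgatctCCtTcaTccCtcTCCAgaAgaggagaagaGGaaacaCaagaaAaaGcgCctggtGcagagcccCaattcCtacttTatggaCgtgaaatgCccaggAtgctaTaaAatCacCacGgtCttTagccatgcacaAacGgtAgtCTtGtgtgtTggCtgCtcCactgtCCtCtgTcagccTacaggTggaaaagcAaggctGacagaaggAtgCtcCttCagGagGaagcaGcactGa
Rps27l: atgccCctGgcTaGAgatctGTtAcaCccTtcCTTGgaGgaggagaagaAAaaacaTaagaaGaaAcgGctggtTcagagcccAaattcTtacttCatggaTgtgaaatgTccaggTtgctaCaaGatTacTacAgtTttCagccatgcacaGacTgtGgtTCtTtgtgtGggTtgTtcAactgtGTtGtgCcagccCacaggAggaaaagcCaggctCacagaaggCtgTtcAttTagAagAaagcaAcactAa
Rps27 lies on chromosome 3 at 90212522 to 90213651 on the minus strand and Rps27l on chromosome 9 at 66946086 to 66949516 on the plus strand. Both coding sequences were 255 bases long and differed at 61 positions, an identity of 76.1%. The longest run shared by the 2 annotated transcripts was 11 bases, so sequencing reads of usual length can be told apart. Rpl22, on chromosome 4 at 152325742 to 152334071, and Rpl22l1, on chromosome 3 at 28805436 to 28807424, were 70.2% identical over 369 aligned positions, with a longest shared run of 26 bases. Rps27 also has a near-identical copy, Rps27rt, on chromosome 9 at 114982366 to 114982739, which shares an unbroken run of 341 bases with the 345-base Rps27 transcript. Rps27rt lies outside the rule, and how reads were divided between it and Rps27 is uncertain.

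RefSeq promoters (GRCm38.p6, 250 bases before to 50 after the annotated start) were found for 64 members. A C at the annotated start followed directly by at least 4 C or T, the form of a TOP sequence, was present in 14 of the 64 (21.9%) and in 3.01% of all 27025 genes with a promoter. The 14 include the pseudogene Rpl32l. Allowing the C to lie within 5 bases of the annotated start gave 46.9% of members and 21.2% of all genes. The following 30-base windows, with 10 bases before the annotated start, show that run in capitals for 5 members that recur in the comparisons.
Rps27: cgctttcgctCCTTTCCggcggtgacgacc
Rps21: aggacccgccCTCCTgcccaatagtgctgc
Rplp2: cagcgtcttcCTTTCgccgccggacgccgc
Rps6: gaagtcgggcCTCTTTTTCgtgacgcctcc
Rps15a: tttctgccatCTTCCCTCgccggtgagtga
The Rps27 window is chr3:90213629-90213658 on the minus strand and the Rps21 window chr2:180257369-180257398 on the plus strand. The Rplp2 window is chr7:141447641-141447670 on the plus strand, the Rps6 window chr4:86857348-86857377 on the minus strand, and the Rps15a window chr7:118116128-118116157 on the minus strand. Searched on both strands over the whole promoter, CTTTCC was present in 51.6% of members and 29.3% of all genes, and GGAAGT in 46.9% and 26.6%. Neither motif contains the other. A match is a description of the sequence only.

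Counts were spread broadly over the members. The 5 with the most counts, Rps14, Rplp1, Rpsa, Rpl32 and Rpl41, together held 12.1% of member counts, and the 20 highest held 40.1%. These are counts of a 3′ library, not divided by transcript length, so their order is one of counts and not of molecules. The members at the other end were 5 with under 10 CPM (counts scaled to the same total for every sum) over all cells, Rps4l, Rpl3l, Rpl32l, Rpl39l and Rpl10l. Rpl10l, known from testis, had 13 counts against 1215731 of Rpl10. Rpl3l, known from muscle, had 954 counts against 958510 of Rpl3. Rps4l, annotated as a transcribed pseudogene on chromosome 6, had 2247 counts. Another 15 rows carry a member's name but fall outside the rule, mostly pseudogenes and retrogenes such as Rpl13-ps6 and Rps13-ps4, and their counts came to 3.06% of the members'.

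Kept barcodes held 4142 to 892142 counts, with a median of 26436, and 6301 of them could be called for a hashtag. Clusters were built without the members and named from marker lists, which gave 8016 T cell-like, 1519 macrophage or monocyte-like, 270 dendritic cell-like, 139 neutrophil-like, 1015 melanoma-like and 26 fibroblast-like cells, with 333 unnamed. T cell-like cells were gated at 5 counts into CD8 cells with Tcf7 and no Havcr2 (704 cells, "Tcf7 CD8"), CD8 cells with Havcr2 (the exhaustion receptor TIM-3) and no Tcf7 (1189, "Havcr2 CD8"), and 1016 CD4 cells, of which 713 were without and the rest with Foxp3, the regulator of regulatory T cells. Another 2878 T cell-like cells passed neither the CD4 nor the CD8 gate.

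The member share of counts was highest in Tcf7 CD8 cells and lowest in neutrophil-like cells. Over summed counts it was 17.6% in Tcf7 CD8, 14.2% in Havcr2 CD8, 13.01% in Foxp3-negative and 12.4% in Foxp3-positive CD4 cells. It was 12.8% in dendritic cell-like, 10.4% in macrophage or monocyte-like, 8.998% in melanoma-like and 3.59% in neutrophil-like cells. Exact binomial intervals at 95% ran from 17.588% to 17.620% in Tcf7 CD8 and from 3.56% to 3.62% in neutrophil-like cells. They treat each count as independent and cover the sampling of counts only, so the spread over hashtags is given as the error. Hashtag calls rest on few counts (median 12 per kept cell), and wrongly assigned cells would make the hashtags look more alike. In hashtags with at least 30 cells of a class, the share of Tcf7 CD8 cells was 17.8% in A0301, 18.7% in A0305 and 17.4% in A0306. Havcr2 CD8 cells ranged from 13.5% to 14.8% over 6 hashtags (median 14.2%), entirely below the Tcf7 CD8 values.

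Further down the order, neighbouring classes overlapped. Foxp3-negative CD4 cells ranged from 12.6% to 13.7% over 4 hashtags and Foxp3-positive cells from 12.6% to 13.5% over 3, and dendritic cell-like cells were at 12.8% and 13.3% in 2. Macrophage or monocyte-like cells ranged from 8.82% to 12.02% over 6 hashtags (median 10.8%), with the lowest value in A0303. Melanoma-like cells ranged from 8.41% to 9.28% over 5 and overlapped macrophages only through A0303. The neutrophil-like sum was unevenly made: the median cell had 1.44%, and 9 of the 139 cells had over 5%. Those 9 cells had 5802 CPM on 12 T cell markers against 195 CPM in the other 130, and 7 of the 9 had Trac at the gate. With each cell thinned to 10000 counts, 76 to 79 of the 85 members were detected in the median cell of the 7 other classes and 28 in neutrophil-like cells, where 58 cells were deep enough.

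**Figure D1:**
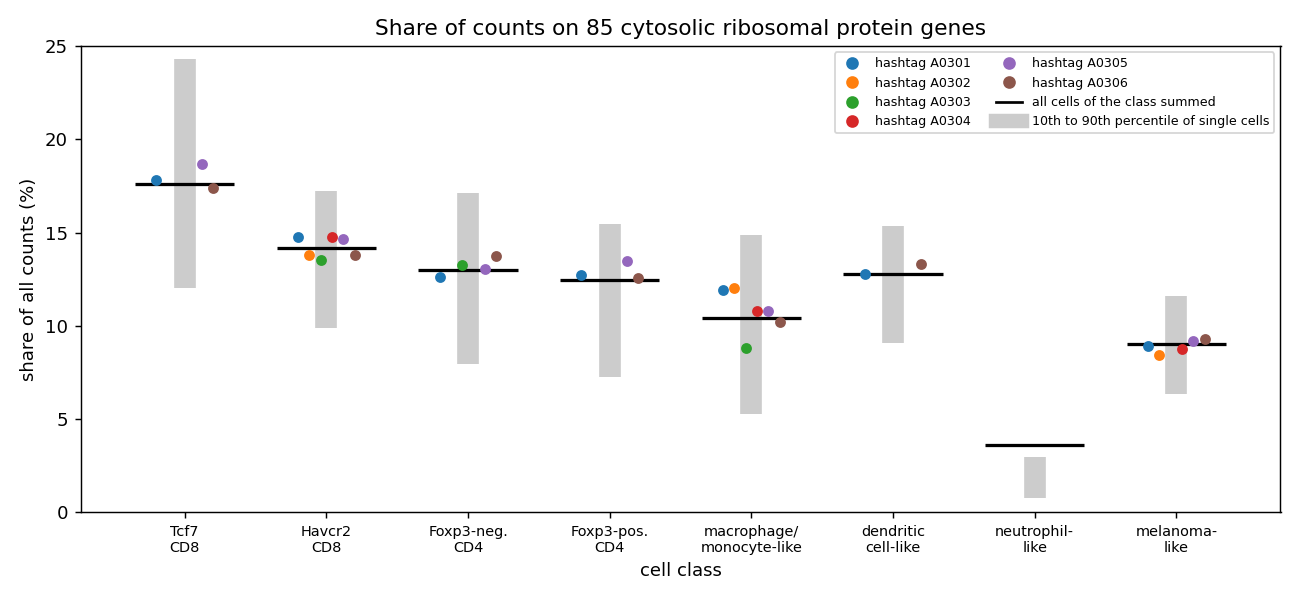
Share of all counts (%, y axis) on the 85 ribosomal protein genes in 8 cell classes (x axis). Points are hashtags with at least 30 cells of the class, black lines the class sum and grey bars the 10th to 90th percentile of single cells. The 3 Tcf7 CD8 points, 17.4% to 18.7%, lie above all points of the other classes, and the neutrophil-like sum (3.59%) lies above the 90th percentile of its own cells (2.96%).

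Within the T cell-like clusters the share was not uniform. Cluster 1, led by Klra7, Cd7, Pde2a and Tcf7, had 17.9%, and cluster 10, led by Ccr7, Dapl1 and Nrn1, also had 17.9%. Cluster 0, led by Lag3, Ccl5 and other CD8 effector genes, had 13.8%, the cycling cluster 4 had 14.3%, and cluster 5, led by Foxp3 and Lrrc32, had 12.6%. The melanoma-like cells divided into a pigment-gene cluster of 861 cells at 9.24% and a cluster of 154 cells led by interferon-induced genes such as Ubd and Iigp1 at 7.75%. The Lyve1-led macrophage cluster (55 cells) had 6.65%, against 10.5% in the C1qc-led one. The ratio of large to small subunit counts was 1.26 to 1.32 in the T cell, macrophage, dendritic and neutrophil-like classes. It was 1.38 in the 26 fibroblast-like cells and 1.39 in melanoma-like cells.

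Tcf7 CD8 cells had the higher member share than Havcr2 CD8 cells in each of the 3 hashtags that held 30 cells of both, 17.8% against 14.7% in A0301, 18.7% against 14.7% in A0305 and 17.4% against 13.8% in A0306. The median log2 ratio was 0.33 (0.27 to 0.35), a 1.26-fold higher share. A ratio was called only when its sign was the same in every hashtag and its median reached 0.5, so the summed share itself was not called. Cells of 1 capture are not replicates and the hashtags have no known group, so no p-value was computed here or below. Members were examined where the sums averaged 100 counts or more. Rpl10l, Rpl32l, Rpl39l and Rpl3l passed in none of the 4 comparisons and Rps4l in the myeloid one alone. Of the 80 that passed here, 70 were higher and 4 lower in all 3 hashtags, where 23.3% and 28.9% of all 5903 genes examined were. With the 0.5 threshold, 11 members were called higher and 2 lower, where 13.8% and 17.5% of all genes were. The count of members called higher was thus at the background. None reached a ratio of 1 in size, where 5.03% of genes were higher and 5.93% lower by that much. The median over members was 0.33 and over all genes examined -0.07.

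Rps27, a small subunit protein, stood first. Its level was 1266, 1135 and 1283 CPM in Tcf7 CD8 cells of A0301, A0305 and A0306, against 646, 671 and 613 CPM in Havcr2 CD8 cells. The 2 arms did not overlap, and the median log2 ratio was 0.97 (0.76 to 1.07). Its copy Rps27l went the other way, at 157, 178 and 194 CPM against 331, 338 and 297 CPM. The groups did not overlap and the median log2 ratio was -0.91 (-1.07 to -0.60). Rps21, a small subunit protein, was called higher at 0.65 (0.62 to 0.72), from 1249, 1225 and 1172 CPM against 798, 743 and 762 CPM.

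The acidic stalk proteins, which recruit elongation factors to the large subunit, were divided. Rplp1 was called higher at 0.53, from 5136, 4826 and 4955 CPM against 3555, 3641 and 3255 CPM, and Rplp2 was called higher at 0.52. Rplp0, the base of the stalk, had a median of 0.16 (0.04 to 0.20) and was not called. Rpl17 (0.56), Rps24 (0.55), Rpl12 (0.54), Rps29 (0.53), Rpl21 (0.52) and Rps16 (0.51) were also called higher. Rpl5 and Rpl11, which bind 5S ribosomal RNA and inhibit Mdm2 when free, had medians of 0.27 and 0.02, and Rps6, the S6 kinase substrate, had 0.27. Rps27a, translated as a fusion with ubiquitin, had 0.33.

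Rpl7l1, a relative of Rpl7, was the second member called lower, at -0.62 (-1.24 to -0.30), from 53.9, 86.9 and 31.3 CPM against 84.4, 109 and 78.7 CPM. Its level in A0305 Tcf7 cells exceeded that in A0301 and A0306 Havcr2 cells, so the groups overlapped across hashtags although the sign held within each. Without A0306, 1 member was called lower in place of 2, and Rpl7l1 was not called. Rpl27 (-0.23), Rps2 (-0.16) and Rpl7a (-0.15) were the next lowest and were not called. Measured against the sum of the members in place of all genes, 4 members were called, with Rps27 at 0.70 and Rps27l at -1.26. The share of all genes called on that scale was not computed.

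Of the Tcf7 CD8 cells, 39.9% lay in cluster 1, where their member share was 20.6%, and 23.2% lay in cluster 2, where it was 15.3%. Without cluster 1 the median log2 ratio was 0.16 (0.09 to 0.22 in 2 hashtags), with Slamf6 in place of Tcf7 it was 0.13 (2 hashtags), and within cells of 15000 to 45000 counts it was 0.51. Tcf7 cells with Pdcd1, the gene of PD-1, had 16.8% (151 cells) and those without it 18.02% (553 cells). Tcf7 CD8 cells were shallower, with a median of 23504.5 against 44600.0 counts, and had a median mitochondrial share of 6.32% against 4.98%. Macrophage markers (14 genes, none at 0) came to 1350 to 2056 CPM in the Tcf7 arm and 1228 to 1457 CPM in the Havcr2 arm, and melanoma markers (10 genes, none at 0) to 202 to 351 and 203 to 280 CPM. B cell markers came to 55.4 to 64.4 CPM against 12.8 to 26.6 CPM, with 3 and 4 of 7 at 0. NK cell markers (7 genes) came to 1074 to 1287 CPM against 2582 to 3087 CPM, with none and 2 at 0, and dendritic cell markers (12 genes) to 526 to 866 CPM against 251 to 342 CPM, with 2 and 1 at 0. The part of depth, mitochondrial share and these markers in the result was not tested.

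Foxp3-positive and Foxp3-negative CD4 cells had close member shares, 12.7% against 12.6% in A0301, 13.5% against 13.1% in A0305 and 12.6% against 13.7% in A0306. The median log2 ratio was 0.01 (-0.13 to 0.05) and the sign differed between hashtags. In thinned cells it was -0.14 (-0.18 to -0.09) and with each cell weighted equally -0.14 (-0.15 to -0.07), both negative in each of the same 3 hashtags. Of 80 members examined, 1 was called higher and 1 lower, where 9.72% and 8.85% of all 3785 genes examined were, and 10 and 26 were higher or lower in each hashtag, where 20.8% and 19.1% of genes were. None reached a ratio of 1 in size, where 3.12% of genes were higher and 3.83% lower by that much. The median share over Foxp3-positive cells was 8.95% in the 25% of cells with the fewest counts and 14.2% in the 25% with the most, and the arm was the deeper one, at a median of 32131 against 18879 counts. Macrophage markers came to 642 to 775 CPM in the Foxp3-positive and 342 to 483 CPM in the Foxp3-negative arm, with 1 and 0 of 14 at 0, and B cell markers to 96.8 to 203 CPM against 14.3 to 41.8 CPM, with 2 and 4 of 7 at 0. Melanoma markers came to 208 to 259 CPM against 260.1 to 366 CPM, with 1 and 0 of 10 at 0. Their part in the result was not tested.

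The 2 called members were again the Rps27 pair. Rps27l was at 203, 343 and 273 CPM in Foxp3-positive cells of A0301, A0305 and A0306, against 177, 176 and 166 CPM, a median log2 ratio of 0.71 (0.20 to 0.96). Rps27 was at 635, 499 and 500 CPM against 738, 741 and 889 CPM, a median of -0.57 (-0.82 to -0.21). Within these 3 hashtags the 2 arms did not overlap for either gene, with A0301 the closest. Foxp3-negative cells of A0303, which had too few Foxp3-positive cells for a ratio, had 215 CPM of Rps27l, above the Foxp3-positive value in A0301. The call of Rps27l was lost without A0305 and that of Rps27 without A0306, which left 1 called member each time. Rps2 (0.35), Rps26 (0.31), Rpl12 (0.27) and Rpl41 (0.26) followed at the top, and Rpl22l1 (-0.28), Rpl35a (-0.25) and Rpl6 (-0.21) were among the lowest, with none of these called. The stalk genes lay between -0.09 and 0.03.

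Myeloid cells, taken as macrophage or monocyte-like, dendritic cell-like and neutrophil-like cells together, had lower member shares than T cell-like cells in all 6 hashtags. The shares were 12.1% against 14.8% in A0301, 11.8% against 14.3% in A0302, 8.83% against 13.5% in A0303, 10.8% against 14.6% in A0304, 11.005% against 14.9% in A0305 and 10.8% against 14.5% in A0306. The median log2 ratio was -0.43 (-0.61 to -0.27), below the size needed for a call, and -0.45 with macrophage or monocyte-like cells alone. It was called, at -0.67, within cells of 15000 to 45000 counts, where 4 hashtags had enough cells, and, at -0.52, with each cell weighted equally. Of 81 members examined, 75 were lower and 2 higher in every hashtag, where 33.7% and 18.5% of all 10192 genes examined were. At the 0.5 threshold 13 were called lower and 1 higher, where 22.3% and 15.2% of all genes were, so the count of called members did not exceed the background. With a threshold of 1 the counts were 0 lower and 1 higher, where 7.32% and 11.2% of all genes were.

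Rpsa, a small subunit protein also known as the laminin receptor, was the lowest member. It had 1901 to 2944 CPM in myeloid cells over the 6 hashtags, lowest in A0303, and 3656 to 4221 CPM in T cell-like cells, with no overlap, and a median log2 ratio of -0.72 (-0.94 to -0.52). Rplp0 (-0.64), Rpl13a (-0.63), Rpl27 (-0.56), Rps15 (-0.56), Rps27 (-0.55), Rpl12 (-0.55), Rpl22l1 (-0.55), Rps15a (-0.54), Rpl4 (-0.53), Rps7 (-0.51) and Rps6 (-0.50) were also called lower. Rps4l was the member called higher, at 1.38 (0.09 to 2.99), but its level was only 3.25 to 15.7 CPM in myeloid and 1.2003 to 3.39 CPM in T cell-like cells. Without A0301 it no longer passed the filter on counts, and no member was called higher. Rps27l had a median of 0.28, Rpl10 0.17 and Rpl7l1 0.13, and none was called. The stalk genes Rplp1 and Rplp2 stood at -0.37 and -0.41. T cell markers (12 genes, none at 0) came to 2117 to 3676 CPM in the myeloid arm against 6690 to 7335 CPM in the T cell-like arm, and macrophage markers to 10455 to 18730 CPM against 1152 to 1805 CPM. Myeloid cells were deeper, at a median of 63498.5 against 20678 counts. With T cells left out in which melanoma or macrophage markers reached 10 counts, the median log2 ratio was -0.34 with the same sign in every hashtag.

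Melanoma-like cells had lower member shares than T cell-like cells in all 5 hashtags with enough cells. The T cell-like arm is shared with the myeloid comparison. The member share was 8.92% against 14.8% in A0301, 8.41% against 14.3% in A0302, 8.76% against 14.6% in A0304, 9.20% against 14.9% in A0305 and 9.28% against 14.5% in A0306. The median log2 ratio of -0.73 (-0.76 to -0.64) was called, and the share was 0.605 of that in T cell-like cells. Of 80 members examined, 51 were called lower and 2 higher, where 32.2% and 34.4% of all 11303 genes were. With a threshold of 1 the counts were 23 and 1, where 23.0% and 25.9% of all genes were called. In sign, 71 were lower and 5 higher in every hashtag, where 36.9% and 38.4% of all genes were. The median over small subunit members was -0.88 and over large subunit members -0.64.

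**Figure D2:**
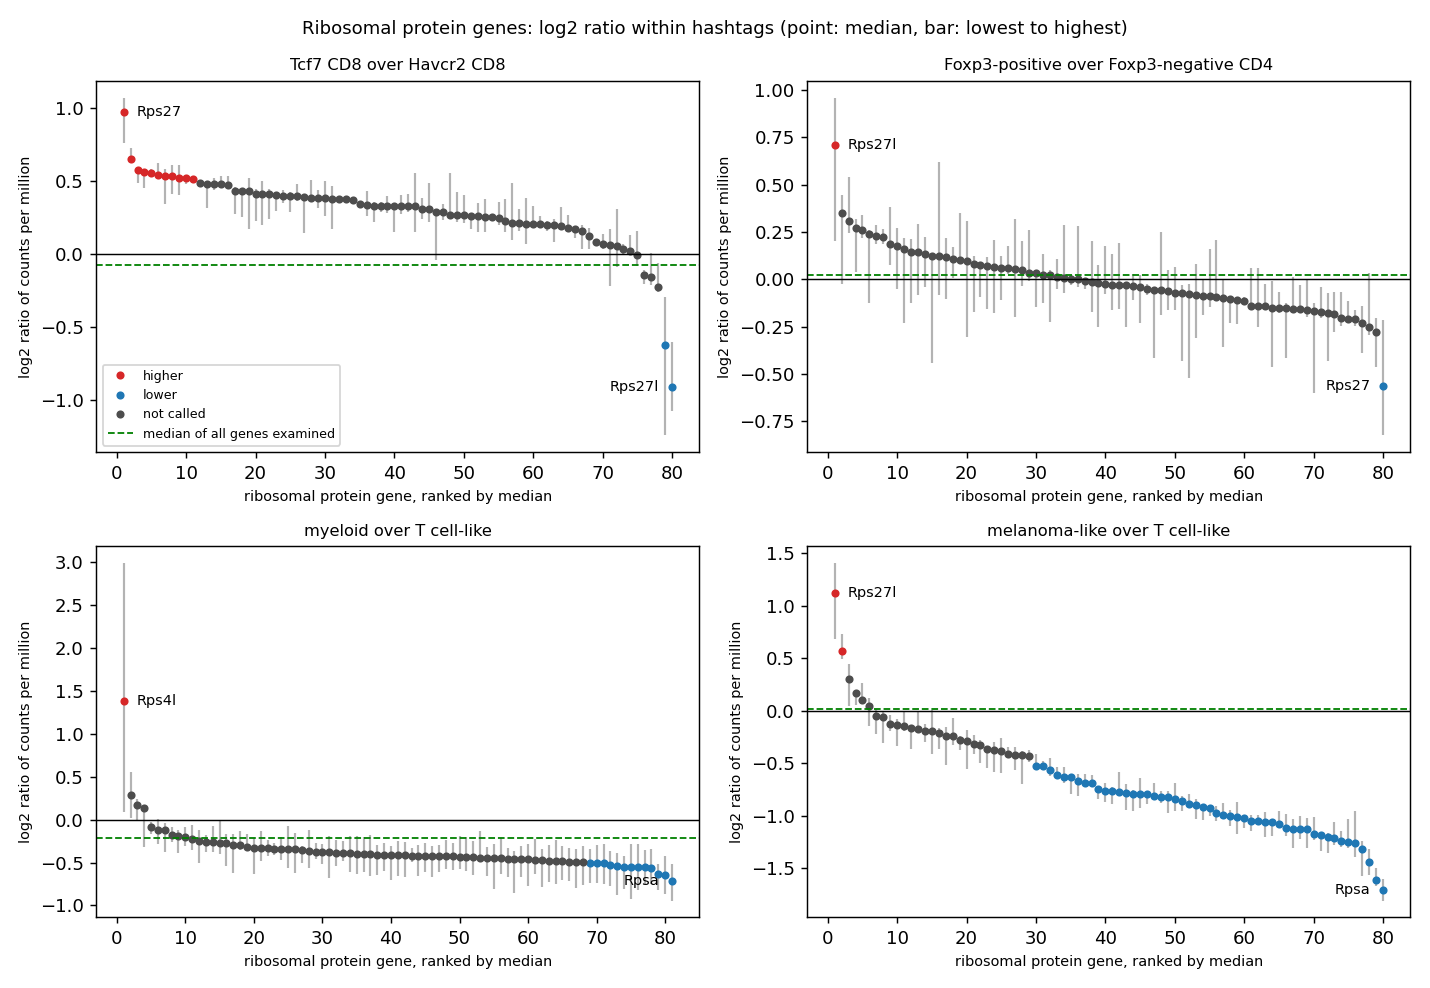
Log2 ratio of CPM for each examined ribosomal protein gene (y axis), ranked by its median over hashtags (x axis), in the 4 comparisons. Points are medians, bars run from the lowest to the highest hashtag, colours give the call and the green line is the median of all genes examined. Most members sit above the line in the Tcf7 comparison and below it in the melanoma comparison, and Rps27l lies at an end in 3 of the panels.

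The lowest member was again Rpsa, at 1361, 1284, 1183, 1260.5 and 1373 CPM in melanoma-like cells of A0301, A0302, A0304, A0305 and A0306, against 4209, 4189, 4151, 4221 and 4164 CPM in T cell-like cells. The groups lay far apart in all 5 hashtags and the median log2 ratio was -1.71 (-1.81 to -1.60). Rpl13a, known for interferon-dependent translational silencing after its release from the ribosome, was next at -1.62 (-1.67 to -1.50), from 1122 to 1255 CPM against 3541.5 to 3620 CPM. Rps15a (-1.44), Rplp0 (-1.32), Rps27 (-1.26), Rps20 (-1.25), Rpl17 (-1.24), Rps13 (-1.21) and Rps6 (-1.21) followed. Of the stalk, Rplp2 (-1.05) and Rplp1 (-0.79) were called lower with Rplp0, and Rpl5 (-1.003) was lower than Rpl11 (-0.75), which was also called.

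The members called higher in melanoma-like cells were 2 of the copies. Rps27l was at 575, 506, 454, 528 and 591 CPM in A0301, A0302, A0304, A0305 and A0306, against 226, 241, 283, 244 and 223 CPM, a median log2 ratio of 1.12 (0.68 to 1.402). Rpl7l1 was at 108, 113, 112, 109 and 119 CPM against 74.7, 79.6, 67.6, 73.6 and 72.3 CPM, a median of 0.57 (0.49 to 0.73). Neither gene's arms overlapped. Rpl22l1 (0.30), Rpl36 (0.16) and Rps14 (0.10) were higher in each hashtag and were not called. Measured against the sum of the members, Rps27l stood at 1.83, Rpl7l1 at 1.26 and Rpl22l1 at 1.03, and Rpsa at -0.96 and Rpl13a at -0.90.

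Melanoma-like cells had a median of 193426 counts against 20678, and a median mitochondrial share of 9.33% against 5.57%. With mitochondrial counts left out of the total the ratio of the member share was -0.67, in cells thinned to 10000 counts it was -0.74, and without the cluster led by interferon-induced genes it was -0.68 over 4 hashtags, all called. Melanoma markers (10 genes) came to 37061 to 39305 CPM in the melanoma-like arm against 218 to 302.3 CPM in the T cell-like arm. T cell markers came to 67.5 to 203 CPM against 6690 to 7272 CPM.

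The share of each pair's counts on the copy ordered the classes differently from the summed share. Rps27l made up 12.3% of Rps27 and Rps27l counts in Tcf7 CD8, 19.5% in Foxp3-negative CD4, 31.5% in Foxp3-positive CD4, 32.7% in Havcr2 CD8, 30.7% in dendritic cell-like, 35.5% in macrophage or monocyte-like and 60.0% in melanoma-like cells. Over hashtags, Tcf7 CD8 cells ranged from 11.02% to 13.5% (3 hashtags), Foxp3-negative CD4 from 15.8% to 20.8% (4), Foxp3-positive CD4 from 24.2% to 40.8% (3), Havcr2 CD8 from 30.3% to 34.7% (6), macrophages from 27.1% to 38.1% (6) and melanoma-like cells from 54.6% to 63.0% (5). Among classes with values by hashtag, Tcf7 CD8, Foxp3-negative CD4 and melanoma-like cells each lay apart from the rest, and the others overlapped. In neutrophil-like cells it was 6.57%, on 48 Rps27l and 683 Rps27 counts. Counting Rps27rt with Rps27, an alternative chosen after the data were seen, lowered the values to 8.39% in Tcf7 CD8, 24.1% in Havcr2 CD8, 13.6% in Foxp3-negative CD4, 23.1% in Foxp3-positive CD4 and 49.4% in melanoma-like cells, with that order kept among these 5.

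**Figure D3:**
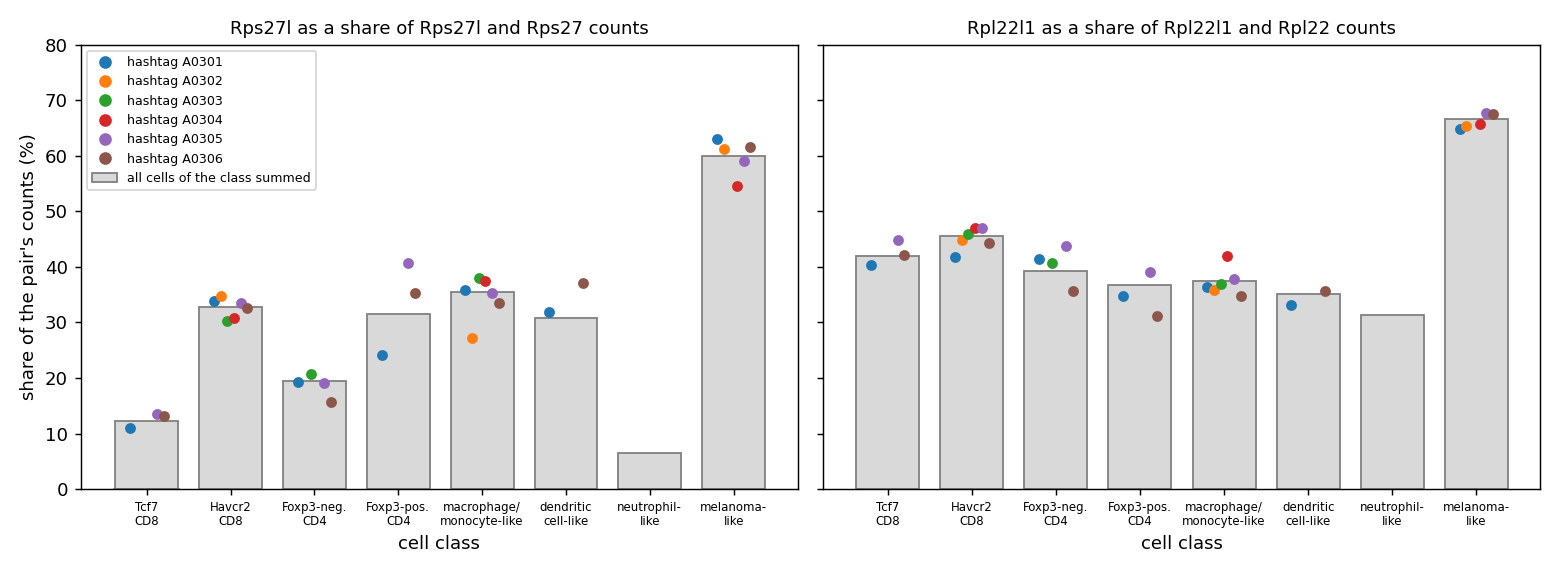
Share of the pair's counts (%, y axis) on Rps27l (left) and Rpl22l1 (right) in 8 cell classes (x axis). Bars are all cells of a class summed and points are hashtags with at least 30 cells. Rps27l stands at 12.3% in Tcf7 CD8 and 60.0% in melanoma-like cells, and Rpl22l1 stands at 66.7% in melanoma-like cells against 31.3% to 45.5% elsewhere.

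Rpl22l1 made up 42.0% of Rpl22 and Rpl22l1 counts in Tcf7 CD8, 45.5% in Havcr2 CD8, 39.3% in Foxp3-negative and 36.7% in Foxp3-positive CD4 cells, 37.5% in macrophage or monocyte-like and 66.7% in melanoma-like cells. Over the 5 hashtags the melanoma-like values ran from 64.8% to 67.8%, and the highest value of any other class was 47.1%. In melanoma-like cells Rpl22 itself was called lower at -1.13 (-1.30 to -1.02), from 262 to 310.7 CPM against 632 to 690 CPM. Rpl7l1 made up 3.87% of Rpl7 and Rpl7l1 counts in Tcf7 CD8, 5.10% in Havcr2 CD8, 6.92% in macrophage or monocyte-like and 10.2% in melanoma-like cells. Rpl39l was at 1 count in melanoma-like cells against 211185 of Rpl39, and at 67 counts in Tcf7 CD8 cells. Rps4l was at 26 counts in melanoma-like and 1154 in macrophage or monocyte-like cells.

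Other genes of translation were followed in lists of 22 translation factors and TOP-type genes, 20 ribosome biogenesis genes, 78 mitochondrial ribosomal protein genes and 17 regulators. In Tcf7 over Havcr2 CD8 cells, 13.8% of all genes examined were called higher and 17.5% lower, the background for each list. Among 22 translation genes, 1 was called higher and none lower, with a median of 0.24 beside 0.33 for the members. The gene called was Gas5, a snoRNA host with a TOP sequence, at 0.64. Eef1b2 (0.44), a subunit of elongation factor 1, Pabpc1 (0.44), the poly(A)-binding protein, and Tpt1 (0.49) were higher in each hashtag and not called. Among 18 biogenesis genes examined, 1 was called higher (Rrn3) and 5 lower, which were Pes1, Bop1 and Wdr12, whose products form the PeBoW complex of large subunit maturation, Dkc1 (-0.71) and Nop16 (-0.73). Of 71 mitochondrial ribosomal protein genes examined, 23 were called lower and 1 higher, where the background was 17.5% and 13.8%, and their median was -0.49. Of 8 regulators examined, 2 were called higher and none lower. Sesn3, a stress-induced inhibitor of mTORC1, was called higher at 2.44 (2.15 to 5.25), and Maf1, a repressor of RNA polymerase III, at 0.92.

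In melanoma-like over T cell-like cells, 34.4% of all genes examined were called higher and 32.2% lower, the background for each list. Among 22 translation genes, 10 were called lower and 1, Eif3l, higher, with a median of -0.47. Eef1a1 (-0.89), Eef2 (-1.13), Pabpc1 (-1.22) and Hnrnpa1 (-1.28) were among the lower ones. Of 20 ribosome biogenesis genes examined, 6 were called higher, led by Bop1 (1.69), Nop2 (1.33) and Wdr12 (1.04). Another 3 were called lower, led by Ubtf (-1.19), the activator of RNA polymerase I. Neither count exceeded the background. Mitochondrial ribosomal protein genes lay on the other side of the members: 53 of 78 were called higher and 1 lower, where the background was 34.4% and 32.2%, with a median of 0.78. Of 16 regulators examined, 3 were called higher and 6 lower, with a median of -0.14. Myc, which drives ribosome biogenesis, was called higher at 1.43 (1.39 to 2.71), and Eif4ebp1, an mTORC1-controlled inhibitor of cap-dependent translation, at 3.38, while Larp1 (-0.91), Eif4ebp2 (-1.23) and Sesn3 (-1.66) were among those called lower. In the myeloid comparison 6 of 22 translation genes were called lower and none higher, where 22.3% and 15.2% of all genes were (median -0.42, against -0.41 for the members), and mitochondrial ribosomal protein genes had a median of -0.09. In Foxp3-positive over Foxp3-negative CD4 cells, 9.72% of all genes examined were called higher and 8.85% lower. Of 22 translation genes, 1, Eif4b, was called lower at -0.73 and none higher. Of 7 regulators examined, Ddit4, an mTORC1 inhibitor, was called higher at 1.45 and none was called lower.

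**Figure D4:**
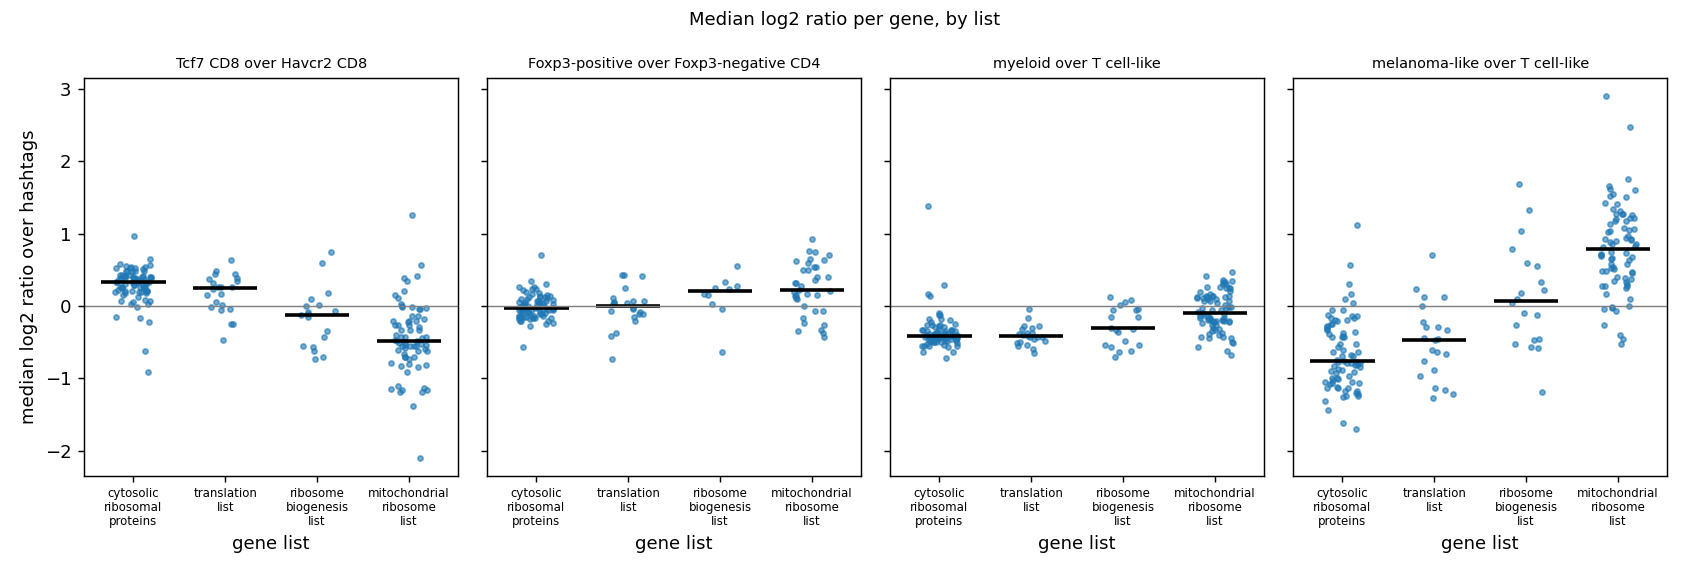
Median log2 ratio over hashtags (y axis) of each examined gene in 4 lists (x axis), for the 4 comparisons, with list medians as black lines. In the melanoma-like comparison the median is -0.77 for cytosolic and 0.78 for mitochondrial ribosomal protein genes, and in the Tcf7 comparison it is 0.33 and -0.49.

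Most members followed the summed share closely across 10 disjoint classes. Pearson's r between a member's log2 CPM and the log2 summed share was computed for 81 members and was highest for Rps4x (0.999), Rps23 (0.998) and Rps15 (0.998). The classes share 1 library and differ in depth, the members are part of the sum, and neutrophil-like cells carry much of the range, so r is a description. The 8 lowest were Rps4l (0.16), Rpl7l1 (0.58), Rps27l (0.64), Rps27 (0.73), Rps9 (0.85), Rpl22l1 (0.86), Rpl10 (0.87) and Rps29 (0.89). Rps27l, Rpl7l1 and Rpl22l1 had their highest level in melanoma-like cells, and Rps27 had its highest in Tcf7 CD8 and its lowest in melanoma-like cells. Among non-members, the gene with a known symbol and role nearest the summed share was Eef1b2 (r = 0.997 over 10 classes), alongside the pseudogene row Rpl14-ps1 (0.997) and Rp9 (0.997). Without neutrophil-like cells Eef1b2 had 0.987 over 9 classes and Eef1a1 0.978. Of the other translation genes, some were higher without them, such as Tpt1 (0.96 in place of 0.91) and Pabpc1 (0.94 in place of 0.85). Others were far lower. Npm1 had 0.27 in place of 0.90, Eif3m 0.15 in place of 0.90, Eef1d 0.014 in place of 0.85 and Eif3l -0.30 in place of 0.58.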

How the data were processed

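A single BD Rhapsody capture, amplified by TAS-Seq, gave an mRNA and a hashtag library. Both deposited tables hold whole-number counts, per gene and cell barcode and per hashtag and barcode. Cutadapt 2.10, Bowtie2 2.3.4.1 and 2.4.2, R 3.5.3 and GRCm38 are named, with no role given, per the submitters' processing notes. The sources used here do not state whether reads of the same molecule were merged. The median non-zero value was 7, so counts are treated as reads. Reads of the same molecule are not independent, so the intervals cover the sampling of counts only and would be too narrow for molecules. Of the kept barcodes, 11116 were found among the 545188 of the hashtag library.

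Barcodes with at least 500 genes and at most 25% mitochondrial counts were kept. After scaling to 10000 counts, 3000 variable genes without the members, 40 principal components and 20 neighbours were used for Leiden clustering at resolution 1 (scanpy 1.11.5, leidenalg 0.10.2). A cluster was named for the class whose markers had the largest average ratio, if it was at least 1.4 and at least 3 markers were found in 20% of its cells, a rule set after the values were seen. A cluster with low median counts and no marker of that class among its leading genes was left unnamed. This kept cluster 8 (283 cells, median 7154 counts) out of the melanoma-like class, although melanoma was its best class (ratio 2.02, 7 markers found). Its member share was 11.2%. Scrublet marked 1 doublet, too few to have worked, so doublets were removed as an alternative only. A hashtag was called when its term added 3 or more to the log likelihood of background alone, no other hashtag reached 3, and it led the next by 3 or more. Kept cells had a median of 12 hashtag counts, and the background shares were 42.3% for A0301 and 28.7% for A0306. How many cells were assigned to a wrong hashtag was not tested.

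For every hashtag with 30 or more cells in each arm, the arms' counts were summed, scaled to CPM over all genes, 5 counts were added to each sum, and log2 ratios were taken within hashtags for genes averaging 100 counts or more. The 5 counts were added before scaling, so ratios of low genes are shifted toward the arm with the smaller summed total. Rpl10l, at 0 CPM in both arms of A0301, had a log2 ratio of 1.34 in the Tcf7 comparison and was not examined. A ratio was called when every hashtag had the same sign and the median was at least 0.5 in size. On simulated counts with 200 genes changed by 2-fold or 4-fold either way, 100.0% of changed genes were called in the Tcf7 comparison (5886 genes run) and 0.02% of unchanged ones. The simulated noise between hashtags was the same in both arms, so it cancels in the ratio, and no spread between cells was simulated. The simulation checks the calculation only and cannot give the rate of false calls in the data. Named members are the 5 highest and 5 lowest in each comparison, the 5 with the most counts, the copies with their parents, and the stalk, 5S-binding, Rps6 and Rps27a genes. Others were named after their values were seen. Some members that this rule names are not reported here. The members and lists were chosen with earlier results of these data known. Alternatives in gates, depth, filters, scaling, doublets and left-out hashtags are given in the closing section. Sequences were compared with biopython 1.88.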

Additional observations from a re-analysis of the deposited data

How the results depend on the processing

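Ratios pair the 2 arms within each hashtag, and the labels of the 1 mRNA library give no replicate number to block on. The member share of melanoma-like over T cell-like cells kept its direction and its call in the 19 alternatives run (-0.74 to -0.63). That of Tcf7 over Havcr2 CD8 cells stayed positive in the 20 run (0.13 to 0.51) and reached the call in cells of 15000 to 45000 counts (0.51). That of myeloid cells stayed negative in the 21 run (-0.67 to -0.34) and was called in cells of 15000 to 45000 counts (-0.67) and with cells weighted equally (-0.52). The Foxp3 ratio of 0.01 changed sign to -0.0009 without mitochondrial counts, -0.065 with all cells pooled, -0.0405 with 10 cells per arm, which admits 5 hashtags, -0.14 thinned and -0.14 with cells weighted equally. It was -0.20 in the depth window, -0.081 with the gate at 10 counts and -0.17 without cycling cells, where only 1 of the 3 hashtags kept enough cells, so the setting and the loss of hashtags cannot be told apart. The cause was not tested.

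Members called numbered 13, 2, 14 and 53 in the Tcf7, Foxp3, myeloid and melanoma comparisons. Scaled to the members' sum they were 4, 2, 3 and 24, and with a threshold of 1 they were 0, 0, 1 and 24. Thinning gave 24 in the Tcf7 and 44 in the myeloid comparison. In the myeloid comparison scaling without the members gave 32, pooling 27 and leaving out 677 cells with high doublet scores 28, and pooling gave 1 in the Foxp3 comparison. Apart from the threshold of 1, the share of all genes called was not computed under these alternatives. Their counts of members therefore cannot be set against a background. Leaving out each hashtag in turn gave shares of 0.30 to 0.34, -0.056 to 0.030, -0.43 (-0.4335 to -0.4252) and -0.73 to -0.71, and 11 to 13, 1 to 2, 11 to 18 and 52 to 53 members. With Rps27rt counted, Rps27l as a share of its pair was lower in the 7 classes computed, at 26.4% in macrophage or monocyte-like and 22.4% in dendritic cell-like cells among others. Leaving out T cells with melanoma or macrophage marker counts was not possible in the Tcf7 and Foxp3 comparisons, since 5676 of 8016 T cell-like cells would go and no hashtag kept 30 cells in both arms, nor was the depth window in the melanoma comparison. Alternatives on the myeloid arm, the interferon-led cluster, Rps27rt and rows named after members were chosen after seeing the data.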

Other observations

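In T cell-like cells without a call for CD4 or CD8, which the report compares with nothing, the member share was 14.6% over 2878 cells and ranged from 13.6% to 14.9% over 6 hashtags. The 26 fibroblast-like cells had a share of 9.03% and the 333 unnamed cells 11.7%. Of the kept cells, 28, 23, 28, 22, 22 and 21 were called for the hashtags A0307 to A0312, which were too few to be compared. No hashtag's share stood apart from the others of its class by Dixon's 95% value in the 12 groups of 4 to 6 hashtags that were looked at. That value takes each group alone and cannot show a shift shared by classes. A0303 had the lowest share in T cell-like (13.5%), Havcr2 CD8 (13.5%), other CD8 (13.06%), CD4 (12.1%) and macrophage or monocyte-like cells (8.82%). It was not lowest in Foxp3-negative CD4 cells (13.3%) or in T cell-like cells without CD4 or CD8 (14.3%).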
